A study of Homo sapiens and Mus musculus with 20 samples.

Results

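The beta-globin gene cluster of human chromosome 11 was described in 7 peak lists from MCF10A, a non-tumorigenic mammary epithelial cell line that does not make Satb1 of its own. The cluster holds HBB, HBD, HBG1, HBG2 and HBE1. Their GENCODE gene bodies, taken on GRCh37 with 100 kb added on each side, merged into 1 interval of 480 kb, chr11:5146694-5626882. All peaks that overlapped this interval were kept and overlapping ChIP-seq peaks were merged, which gave 15 sites of the 76660 that the 5 ChIP-seq lists held in all. The rule used gene positions and no value of these lists. Some GENCODE transcripts of HBG2 and HBE1 start far inside the neighbouring olfactory receptor genes, so their gene bodies spanned 252 kb and 237 kb, whereas the canonical transcripts of the 5 genes were 1589 to 1646 bp long. Distances to a globin gene are given to its canonical transcript.

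The study asked how Satb1, a nuclear protein that binds A/T-rich DNA and organises chromatin, selects its targets. Full-length Satb1 (FL), ∆HD, which lacks only the homeodomain, and N-C1, which keeps the N-terminal dimerization domain and the first CUT domain, were each expressed in MCF10A as fusions to eGFP from an inducible lentiviral vector. ChIP-seq with a GFP antibody gave 1 peak list for each. Cells expressing the FL fusion were also treated for 2 h with camptothecin, which inhibits topoisomerase I, or with ICRF-193, which inhibits topoisomerase II. ATAC-seq, which reports accessible DNA, gave 1 list from native MCF10A without a Satb1 construct and 1 from MCF10A expressing Satb1. The fusions were introduced into a cell type in which the factor is normally absent. The study states that its genomics experiments were done in duplicate, but there was 1 deposited list per condition and no replicate list. No p-value is therefore given for a difference between conditions, and each interval printed covers counting error only.

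The beta-like globin genes are read in order of development, HBE1 in the embryo, HBG1 and HBG2 in the fetus, and HBD and HBB after birth. They stand in that order behind the locus control region (LCR), a group of enhancers upstream of HBE1 that loops to the gene in use in erythroid cells. In other cell types the cluster is usually silent. Satb1 is known to bind within this cluster in erythroid cells, where it has been linked to the looping of the LCR. All 5 genes lie on the minus strand, so that upstream of HBE1 means toward higher coordinates.

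Sequences of 300 bp around the midpoints of 5 of the 15 sites show what the listed DNA looks like. Sites are numbered from the HBB side to the LCR side, and each sequence is the plus strand of GRCh37, 5′ to 3′. Capitals mark the core consensus of Satb1, written NTANTAN with C or T as the first base, A or T in the middle and A or G as the last. This pattern is its own reverse complement, so both strands give the same positions, and overlapping matches were each counted. Site 2, chr11:5155693-5155992, is shown because it was listed for FL and not for either construct. Site 8, chr11:5254521-5254820, lies in an intron of HBD. Site 10, chr11:5311752-5312051, is the site nearest to the enhancers of the LCR. Sites 11, chr11:5353958-5354257, and 14, chr11:5579178-5579477, stood in all 5 ChIP-seq lists.
Site 2: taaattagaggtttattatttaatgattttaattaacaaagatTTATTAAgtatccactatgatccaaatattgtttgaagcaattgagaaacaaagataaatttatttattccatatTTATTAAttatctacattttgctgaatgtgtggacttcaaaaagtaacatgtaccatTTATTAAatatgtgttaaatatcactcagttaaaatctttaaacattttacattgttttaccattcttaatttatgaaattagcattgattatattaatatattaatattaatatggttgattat
Site 8: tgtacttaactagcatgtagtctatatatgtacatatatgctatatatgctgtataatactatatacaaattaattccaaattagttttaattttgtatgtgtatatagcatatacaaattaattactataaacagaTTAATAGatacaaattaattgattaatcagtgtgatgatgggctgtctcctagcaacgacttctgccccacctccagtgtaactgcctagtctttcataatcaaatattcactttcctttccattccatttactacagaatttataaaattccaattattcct
Site 10: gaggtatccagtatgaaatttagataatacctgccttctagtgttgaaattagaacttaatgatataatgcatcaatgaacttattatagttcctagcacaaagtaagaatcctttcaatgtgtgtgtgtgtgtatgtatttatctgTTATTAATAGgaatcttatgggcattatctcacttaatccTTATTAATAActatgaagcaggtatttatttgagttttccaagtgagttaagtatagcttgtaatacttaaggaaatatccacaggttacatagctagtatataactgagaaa
Site 11: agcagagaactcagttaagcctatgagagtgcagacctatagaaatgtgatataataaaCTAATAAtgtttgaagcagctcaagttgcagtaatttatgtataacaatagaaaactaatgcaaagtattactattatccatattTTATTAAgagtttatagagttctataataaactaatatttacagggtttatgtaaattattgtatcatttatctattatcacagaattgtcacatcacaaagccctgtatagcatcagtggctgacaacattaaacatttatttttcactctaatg
Site 14: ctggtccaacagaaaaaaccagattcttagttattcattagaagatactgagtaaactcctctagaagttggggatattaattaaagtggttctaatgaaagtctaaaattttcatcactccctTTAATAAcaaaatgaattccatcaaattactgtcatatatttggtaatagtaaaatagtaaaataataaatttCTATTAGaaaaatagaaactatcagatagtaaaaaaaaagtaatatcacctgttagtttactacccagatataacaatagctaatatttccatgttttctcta

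Satb1 peaks were found on both sides of the globin genes but not, for FL, at the genes themselves. The interval held 5 FL peaks (exact 95% Poisson interval 1.62 to 11.7), 8 ∆HD peaks (3.45 to 15.8), 12 N-C1 peaks (6.20 to 21.0), 3 peaks after camptothecin (0.619 to 8.77) and 8 after ICRF-193 (3.45 to 15.8). Per Mb this was 10.4 for FL (3.38 to 24.3) against 8.0 over the genome and 7.06 on chromosome 11. For ∆HD it was 16.7 against 17.7 over the genome, for N-C1 25 against 22.0, for camptothecin 6.25 against 8.56 and for ICRF-193 16.7 against 13.1. In each ChIP-seq list the genome-wide density lay inside the counting interval of the locus. The whole lists held 22877 (FL), 50537 (∆HD), 62856 (N-C1), 24475 (camptothecin) and 37350 (ICRF-193) peaks, so the order of the counts in the locus is close to the order of the list sizes. The study gives a range of depth for its ChIP-seq libraries but not the depth behind each list, and absence of a peak does not show absence of binding. The counts depend on where the interval ends. Coding sequences of the canonical transcripts plus 100 kb, which drop the far part reached by the long HBG2 and HBE1 transcripts, left 3 FL and 5 ICRF-193 peaks.

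**Figure D1:**
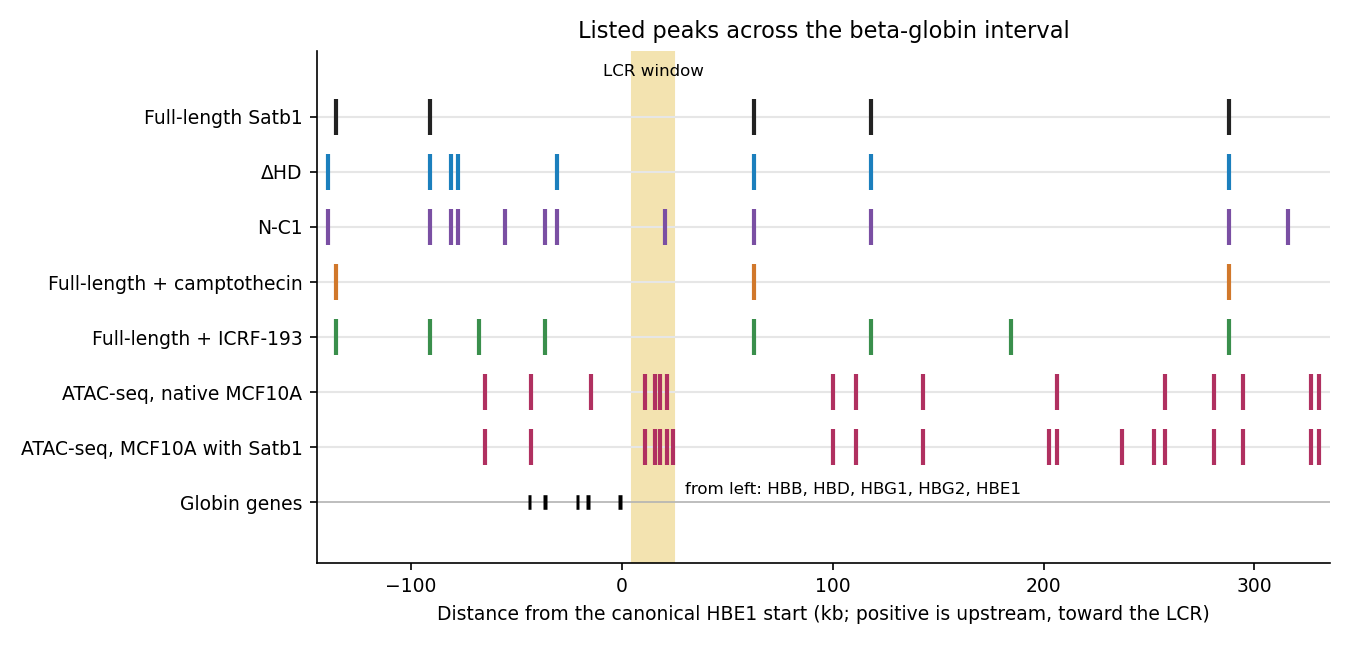
Position of each listed peak (ticks at the midpoint of the merged site or region, not to the width of the peak) in kb from the canonical HBE1 start, 1 row per list, with the 5 globin genes below and the window from 5 to 25 kb upstream of HBE1 shaded. FL and camptothecin have no tick between HBB and the end of the shaded window, whereas N-C1 has 3 there.

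The FL sites lay far from every globin gene. Going upstream from HBE1 they were 62.7 kb (site 11), 118 kb (site 12) and 288 kb (site 14) away, and on the other side of the cluster they were 46.3 kb (site 3) and 90.6 kb (site 2) downstream of HBB. Between the FL peaks of sites 3 and 11 stretched 154 kb without an FL peak, and this stretch held all 5 canonical globin genes and the LCR. In the FL list 24.5% of the gaps between neighbouring peaks were at least as long. The stretch was chosen because it spans a fixed domain, and long gaps span more positions than short ones. The share therefore describes the list and does not measure how rare such a stretch is. The median gap was 63.0 kb.

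The other lists gave different borders for the same domain. After camptothecin, where sites 3 and 12 were not listed, the free stretch was 198 kb long, and 16.1% of the gaps in that list were at least as long. The domain from the end of HBB to 25 kb upstream of HBE1 measured 69.5 kb and held 1 ∆HD peak, 3 N-C1 peaks and 1 ICRF-193 peak. The widest free stretch around it was 93.3 kb for ∆HD (16.5% of gaps as long), 51.3 kb for N-C1 (24.8%) and 99.2 kb for ICRF-193 (21.4%). Here the widest of several stretches is set beside single gaps, so these shares too are descriptions alone. Consensus matches were present in this domain, 64 of them, with 60.3% A/T against 61.0% in the whole interval.

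Gene by gene, HBB, the adult beta chain, had no ChIP-seq peak within 5 kb. The nearest was 6.21 kb upstream in the ICRF-193 list, 6.25 kb upstream for N-C1 and 11.9 kb upstream for ∆HD, and these peaks lie in or upstream of HBD. For FL the nearest was 46.5 kb downstream and after camptothecin 90.6 kb downstream.

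HBD, which codes for the minor adult delta chain, was the globin gene closest to listed peaks. Site 8, chr11:5254510-5254831, fell in its intron with a fold enrichment of 6.56 for N-C1 and 5.58 after ICRF-193. These folds stood at the 57.2 and 28.8 percentiles of their own lists. The same site was not listed for FL, ∆HD or camptothecin. Site 9, chr11:5260203-5260551, lay 4.49 kb upstream of the canonical HBD start, within a longer HBD transcript, and had folds of 5.37 for ∆HD and 5.18 for N-C1. Site 8 held 1 consensus match in 400 bp and site 9 held 3.

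The fetal genes HBG1 and HBG2 and the embryonic gene HBE1 had no ChIP-seq peak within 5 kb in any of the 5 lists. The nearest peak to HBG1 was 8.95 kb downstream (∆HD), and that to HBG2 was 13.9 kb downstream, in both cases site 9. For HBE1 the nearest was N-C1 at site 10, 20.6 kb upstream. HBG1 and HBG2 are near-identical copies, and the study names default aligner settings without saying how reads that fit both were treated, so a missing peak there is less certain than elsewhere. The canonical transcripts of both held 1 consensus match each and were 52.7% (HBG1) and 53.1% (HBG2) A/T, below the 59.9% of HBB, 59.4% of HBD and 58.0% of HBE1.

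In the LCR window, taken as 5 to 25 kb upstream of HBE1, 1 of the 15 sites was found. Site 10, chr11:5311767-5312037, was listed for N-C1 alone, with a fold enrichment of 5.70, at the 46.7 percentile of its list. Its 4 consensus matches are the most in 400 bp at any of the 15 sites and form overlapping pairs, 3 bp apart within each pair, as the capitals in its sequence show. The window as a whole held 16 matches in 20 kb and was 58.6% A/T.

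Of the 15 sites, 4 were listed for ∆HD and N-C1 and in no list of FL, treated or untreated (26.7%, beside 16.8% of all merged sites). These were site 1 with folds of 8.21 for ∆HD and 7.08 for N-C1, site 4 with 6.88 and 6.22, site 5 with 6.13 and 5.0, and site 9. Sites 4, chr11:5210001-5210373, and 5, chr11:5213196-5213648, were intergenic and lay 36.3 kb and 33 kb downstream of HBB. Site 1, chr11:5151482-5151937, fell in an exon of the olfactory receptor gene OR52A5.

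The converse pattern was seen once. Site 2, chr11:5155603-5156082, in an intron of OR52A5, had folds of 6.27 for FL, 8.29 after camptothecin and 12 after ICRF-193, and was in neither construct list. Of the 5 FL peaks this is 1, or 20% (95% Clopper-Pearson interval 0.505% to 71.6%), beside 4.10% of all FL peaks that neither construct list overlapped and 3.45% that were in addition overlapped by both treated lists. Within the ICRF-193 list it was the strongest peak of the locus, at the 80.6 percentile of that list, while in the FL list it stood at the 35.1 percentile. Sites 1 and 2 are both in OR52A5 and are close neighbours, yet the first was in the construct lists alone and the second in the FL lists alone.

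Sites 11 and 14 were the ones in all 5 lists, 2 of 15 or 13.3% (1.66% to 40.5%), beside 21.0% of all merged sites. Site 11, chr11:5353874-5354341, had folds of 7.19 for FL, 12.6 for ∆HD, 12.1 for N-C1, 6.82 after camptothecin and 7.92 after ICRF-193. It was the strongest peak of the locus for both constructs, at the 87.4 percentile for ∆HD and the 85.8 percentile for N-C1, against the 48.3 percentile for FL. Site 14, chr11:5578993-5579663, had 7.60 for FL, 8.21 for ∆HD, 10.0 for N-C1, 9.35 after camptothecin and 10.5 after ICRF-193, and it was the strongest for FL and camptothecin. Folds of different lists were not divided by each other, because each rests on its own depth and background.

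Sites 3 and 12 were in 4 lists and missing from the camptothecin list. Site 3, chr11:5199842-5200345, is intergenic and had 6.37 for FL, 7.83 for ∆HD, 6.22 for N-C1 and 8.90 after ICRF-193. Site 12, chr11:5409119-5409550, in an intron of the olfactory receptor gene OR51M1, had 6.23, 6.32, 5.87 and 6.94 in the same order. Both were among the weakest FL peaks of the locus, together with site 2.

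**Figure D2:**
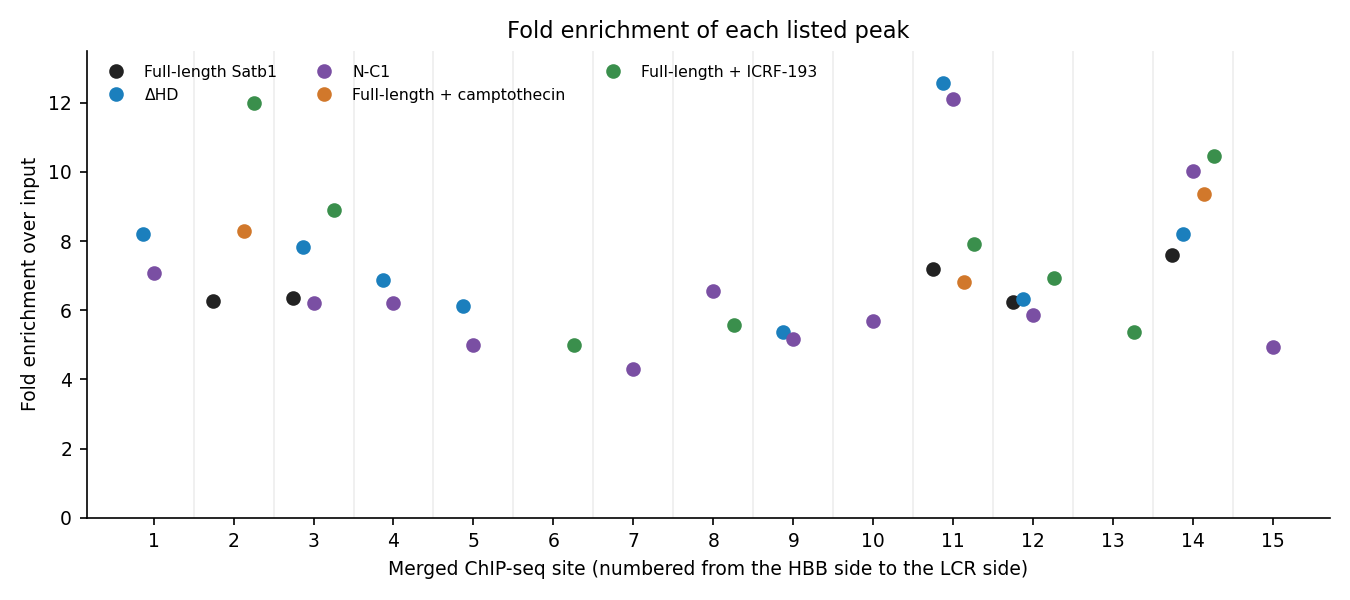
Fold enrichment over input (vertical axis, linear from 0) of every listed peak at the 15 merged sites (horizontal axis), coloured by list, with 1 value per list and no replicate lists, so no error bars. Site 11 carries the 2 highest values, 12.6 for ∆HD and 12.1 for N-C1, and the 5 FL values lie between 6.23 and 7.60.

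The 5 FL peaks were ordinary members of their list, with percentiles from 32.9 to 53.1 and a median fold of 6.37 against 7.32 over the list. The nearest FL peaks beyond the interval were stronger. On the HBB side the nearest FL peak, 15.1 kb beyond the border, had a fold of 17.9, and on the far side the nearest, 80.6 kb beyond, had 32.4. At the latter the other folds were 5.91 for ∆HD, 31.2 for N-C1, 30.8 after camptothecin and 39.6 after ICRF-193. The ∆HD fold there lay below the median of 7.36 for the ∆HD peaks of the interval.

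The overlap of the lists in the locus can be read against the lists as a whole. Of the 5 FL peaks, 4 were overlapped by ∆HD (80.0%, 28.4% to 99.5%) and 4 by N-C1, where the shares over all FL peaks were 88.6% and 95.2%. With a reciprocal overlap of 50% the ∆HD share was 40% and the N-C1 share 80%. After camptothecin 3 of 5 were listed (60.0%, 14.7% to 94.7%) beside 81.7%, and after ICRF-193 5 of 5 (47.8% to 100%) beside 92.9%. Both sites in all lists make 2 of 5 FL peaks (40%) beside 70.8%. Each of these backgrounds lies within the counting interval of the locus.

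In the other direction, 4 of the 8 ∆HD peaks overlapped an FL peak (50%, beside 39.9% of the list, and 25% with a reciprocal overlap of 50%), 4 of the 12 N-C1 peaks (33.3%, beside 34.6%), 3 of the 3 camptothecin peaks (beside 76.1%) and 5 of the 8 ICRF-193 peaks (62.5%, beside 56.7%). All 8 ∆HD peaks were also N-C1 peaks, where 82.6% is the share of the whole list, and 8 of the 12 N-C1 peaks were ∆HD peaks (66.7%, beside 66.9%). FL was listed at 5 of the 15 sites (33.3%, beside 29.6%), and 5 of the 15 sites were in 1 list alone (33.3%, beside 35.9%). Those were sites 6 and 13 for ICRF-193, with folds of 4.99 and 5.38, and sites 7, 10 and 15 for N-C1, with 4.31, 5.70 and 4.95. Site 6, chr11:5223327-5223581, lay 23.1 kb downstream of HBB and site 7, chr11:5235870-5236116, 10.6 kb downstream, both intergenic. Site 13, chr11:5475815-5476082, and site 15, chr11:5606842-5607113, lay 185 kb and 316 kb upstream of HBE1.

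The peak summits of the lists coincided closely where sites were shared. Over the 16 peaks that shared a site with FL, the summit lay 0 to 103 bp from the FL summit, with a median of 19.5 bp. The longest distance, 103 bp, was that of ICRF-193 at site 14. Of all 36 peaks in the locus, 35 had their summit within 100 bp of a consensus match and the median was 26 bp. Many of these peaks share a site, so they are not separate observations. The share over all peaks of the lists was not computed. The exception was site 13, where the nearest match was 312 bp from the summit.

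Consensus matches were found at 14 of the 15 sites in 400 bp around the midpoint, where 28.1% of the 400 bp tiles of the locus, 24.8% of those on chromosome 11 and 25.8% of those of the genome hold at least 1. Of all merged sites on chromosome 11, 94.5% held one, so the locus is near the share of sites elsewhere. The sites held 2.20 ± 1.01 matches (SD across 15 sites), and 12 of them held at least 2. The mean over all 3015 merged sites of chromosome 11 was 2.27. Site 13, in an exon of the olfactory receptor gene OR51I2, had none. The most frequent word at the sites was TTATTAA with 12 occurrences, followed by TTAATAA with 8, which were also the most frequent in the interval as a whole with 84 and 93. At site 2 all 3 matches were TTATTAA. FL sites held 2.40 ± 0.548 matches (SD, 5 sites) and the 7 sites listed for the constructs alone held 2.71 ± 0.756 (SD, 7 sites), a difference smaller than either SD. Over the genome the study reports the other direction, a lower motif density at sites bound only by N-C1 and ∆HD.

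Each site was richer in A/T than its surroundings. The central 200 bp were 73.5% ± 4.0 A/T (SD across 15 sites) and flanks 1000 to 2000 bp away were 61.2% ± 2.65, with all 15 sites above their own flanks, by 5.15 to 21.8 percentage points. On chromosome 11 91.6% of the merged sites were above their flanks and the mean A/T content was 70.5%. The 5 FL sites ranged from 74.5% to 80.0% and the 7 construct-only sites from 66.0% to 73.5%, so that these groups did not overlap in this locus. The remaining sites, which were listed for ICRF-193 but not for untreated FL, were site 6 at 78.5%, site 8 at 71.0% and site 13 at 77.0%. The richest was site 12 with 80.0% and the poorest site 4 with 66.0%. Over chromosome 11 the mean was 71.9% ± 5.78 (SD, 920 sites) at merged sites listed for FL. At all 3015 merged sites, which include those 920, it was 70.5% ± 5.51 (SD). These means lie within 1 SD of each other. The range of 1 SD around the FL mean holds most of the values of both groups of the locus, which are small. No such value was computed for construct-only sites elsewhere, so whether the split is particular to the locus was not tested. The study itself reports a lower A/T percentage at sites bound only by N-C1 and ∆HD than at FL sites over the genome.

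**Figure D3:**
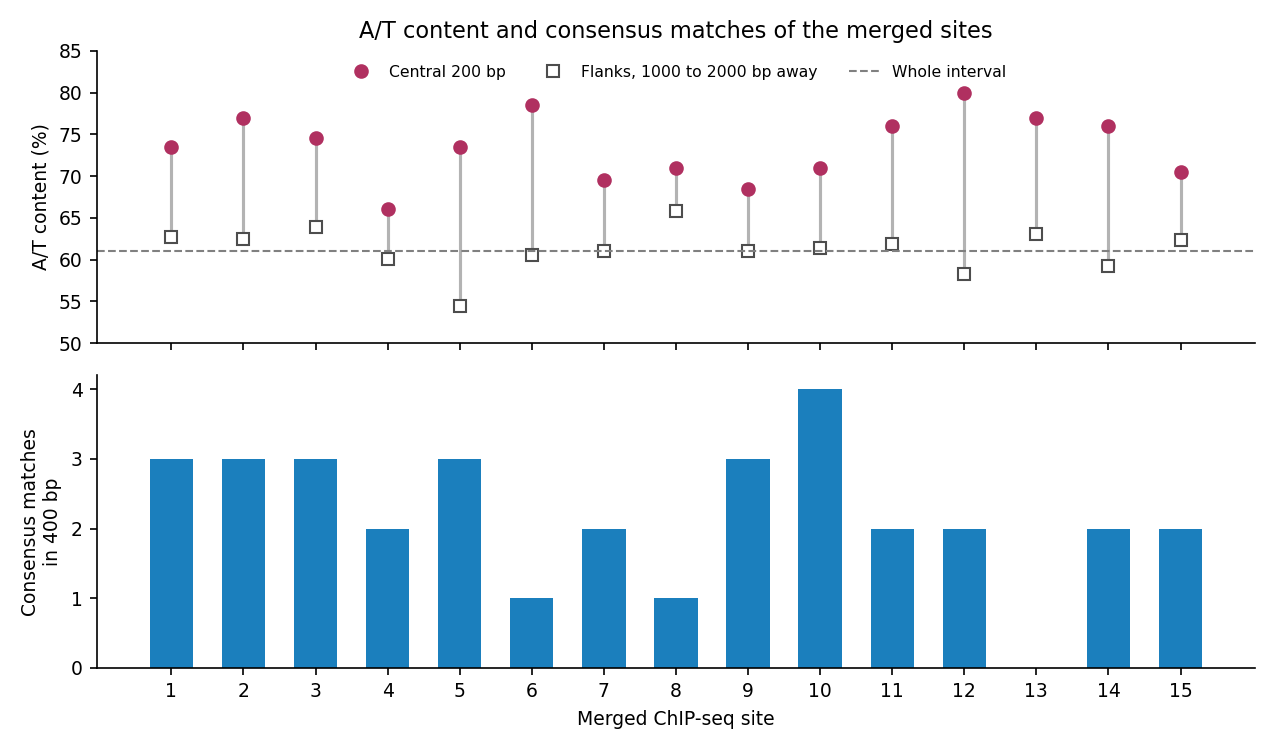
Upper panel, A/T content in percent (axis from 50) of the central 200 bp (filled) and of flanks 1000 to 2000 bp away (open) at the 15 merged sites, with the interval as a whole, 61.0%, as a dashed line. Lower panel, number of consensus matches in 400 bp, which runs from 0 at site 13 to 4 at site 10.

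Most consensus matches in the locus were not in a peak. Of the 416 matches, 12 lay inside FL peaks, 2.88% (1.5% to 4.98%), beside 2.71% of all matches in the genome. The interval counts matches as independent, although each FL peak holds several, so it is too narrow. For ∆HD the share was 4.81% beside 5.24%, for N-C1 6.49% beside 6.06%, for camptothecin 1.68% beside 2.97% and for ICRF-193 3.37% beside 4.23%. Matches were slightly denser in the locus than in the genome, 0.866 against 0.818 per kb.

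Matches were also split by how many others lay near them. A total of 276 matches had no neighbour within 200 bp, and 0 of them lay in an FL peak, which with a limit of 3 counts allows a share of up to 1.09% beside 0.287% in the genome. Of 107 with 1 neighbour 6 were in FL peaks, and of 28 with 2 neighbours 6 were, where the genome gives 2.32% and 11.1%. Only 5 matches had 3 neighbours, and 0 of them were in FL peaks (up to 60% allowed by the same limit of 3 counts), beside 32.0% in the genome. The 4 of them in a peak of another list were the matches of site 10, in the N-C1 list, so they are not separate observations. The cluster held no match with 4 or more neighbours, the class of which 69.5% lay in FL peaks over the genome. Groups of 4 or more matches, each within 200 bp of the next, occurred at 3 places, 1 of which is site 10. The other two, chr11:5229123-5229490 and chr11:5342436-5342815, were in no ChIP-seq list although the first was 75% A/T in its central 200 bp.

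ATAC-seq gave 16 peaks in the interval in native MCF10A (exact 95% Poisson interval 9.15 to 26.0) and 19 in MCF10A with Satb1 (11.4 to 29.7), which merged into 20 regions. These are 33.3 and 39.6 peaks per Mb (19.0 to 54.1 and 23.8 to 61.8), against 61.6 and 72.1 over the genome, both above the counting intervals. Accessible peaks covered 1.53% and 1.84% of the locus, against 5.76% and 8.95% of the genome. Of the native peaks, 15 of 16 were overlapped by the other list (93.8%, beside 88.8%), and of the peaks with Satb1 15 of 19 (78.9%, beside 70.2%).

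The strongest accessible region of the locus lay in the LCR window, 10.9 kb upstream of HBE1. It had folds of 22.9 in native cells and 19.0 with Satb1, at the 96.2 and 97.9 percentiles of their lists. Its central 300 bp on the plus strand of GRCh37, chr11:5301918-5302217, are shown with TGACTCA in capitals, the kind of sequence bound by NF-E2 in erythroid cells and by AP-1 factors in many other cells. It occurs 2 times in tandem in this stretch.
Accessible LCR region: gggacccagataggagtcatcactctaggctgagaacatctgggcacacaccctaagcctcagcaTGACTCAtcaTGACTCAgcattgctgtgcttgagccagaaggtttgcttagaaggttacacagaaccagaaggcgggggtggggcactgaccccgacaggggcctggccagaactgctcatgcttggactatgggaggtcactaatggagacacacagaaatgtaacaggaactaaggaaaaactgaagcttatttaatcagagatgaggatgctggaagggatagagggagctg

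TGACTCA or TGAGTCA, which are each other's reverse complement, stood within 400 bp around the centre of 6 of the 20 accessible regions and of 1 of the 15 ChIP-seq sites, where 6.09% of the 400 bp tiles of the genome hold one. This search was added after the strongest region had been seen, and that region is among the 6. The share over all accessible regions of the lists was not computed, so the count is not shown to be particular to this locus. A match is a description of the letters and not of a bound factor.

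The LCR window held 5 of the 20 regions. Apart from the strongest, they lay 16.0 kb upstream of HBE1 (folds 4.78 native and 3.84 with Satb1), 18.3 kb (2.64 and 2.61), 21.5 kb (10.2 and 5.74) and 24.1 kb (1.94, listed with Satb1 alone). Downstream of HBB, a region 20.2 kb beyond the gene had folds of 8.23 and 7.69.

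At the genes themselves accessibility was weak. HBB carried a region over its start with folds of 2.58 in native cells and 2.40 with Satb1, at the 16.0 and 37 percentiles. HBG2 had one 0.329 kb upstream of its start in native cells alone, with a fold of 2.71. No region overlapped the promoter of HBD, HBG1 or HBE1, taken as 1000 bp upstream to 100 bp downstream of the start, where 73.6% of canonical promoters of protein-coding genes overlapped a native peak and 77.4% a peak with Satb1. Of 9 erythroid marker promoters 2 were accessible in both lists, HBA1 and HBB, and those of GATA1, KLF1 and TAL1 were not. Of the promoters of 8 basal mammary markers 7 were accessible in both lists, among them those of KRT5 and KRT14. The promoter taken for TP63 was accessible in neither, and the rest of that gene is not described here. Both marker counts stand beside the 73.6% and 77.4% of all protein-coding genes given above.

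None of the 15 ChIP-seq sites overlapped an ATAC-seq peak of either list. A count of 0 is read with a limit of 3 counts, which for 15 sites allows a share of up to 20% (95% Clopper-Pearson upper bound 21.8%), and the shares over all merged sites were 4.20% (native) and 4.89% (with Satb1), so that 0 is near the background. The median distance from a site to the nearest native peak was 11.7 kb. The closest pair was in the LCR window, where site 10 ended 0.406 kb before the region 21.5 kb upstream of HBE1 began. Accessible regions averaged 51.4% A/T and 18 of 20 lacked a consensus match, whereas the ChIP-seq sites averaged 73.5% and 1 of 15 lacked one. The values over all accessible regions of the lists were not computed, so this contrast is not shown to be particular to the locus.

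**Figure D4:**
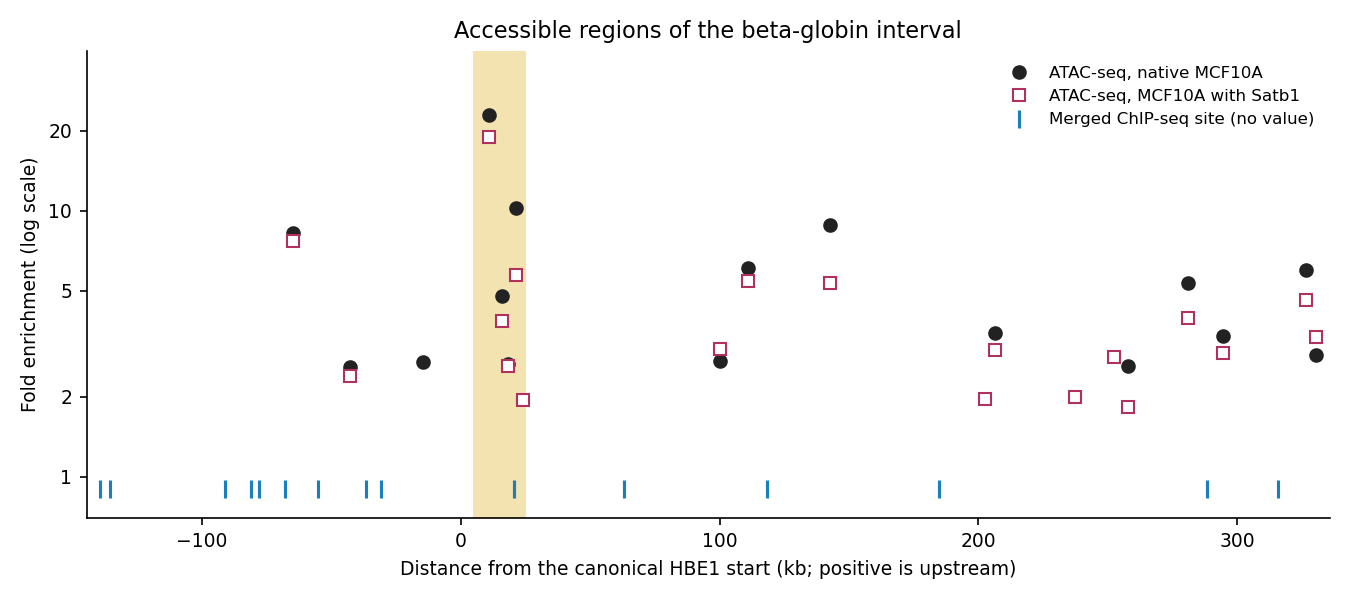
Fold enrichment (log scale) of the 20 accessible regions against distance in kb from the canonical HBE1 start, for native MCF10A (filled) and MCF10A with Satb1 (open), with the 15 ChIP-seq sites as ticks below that carry no value. The highest pair of points, 22.9 and 19.0, is in the shaded LCR window, and no tick meets an accessible region.

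The FL count lay between those of 2 other tissue-specific clusters. The alpha-globin interval on chromosome 16 (238 kb, 46.7% A/T, 70 matches) held 0 FL peaks, which allows up to 3.69 by the 95% Poisson limit, and 1 peak in all, for ∆HD. The casein interval on chromosome 4 (520 kb, 65.3% A/T, 634 matches) held 8 FL, 19 ∆HD, 30 N-C1, 6 camptothecin and 20 ICRF-193 peaks. Per 100 consensus matches the FL counts were 1.20 at beta-globin and 1.26 at casein, against 0.978 over the genome, and the N-C1 counts were 2.88 and 4.73, against 2.69. In each of the 5 ChIP-seq lists the counting intervals of the beta-globin density overlapped those of both other loci. Accessibility ran the other way, with 35 native ATAC-seq peaks at alpha-globin (24.4 to 48.7), 147 per Mb, and 8 at casein, 15.4 per Mb.

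**Figure D5:**
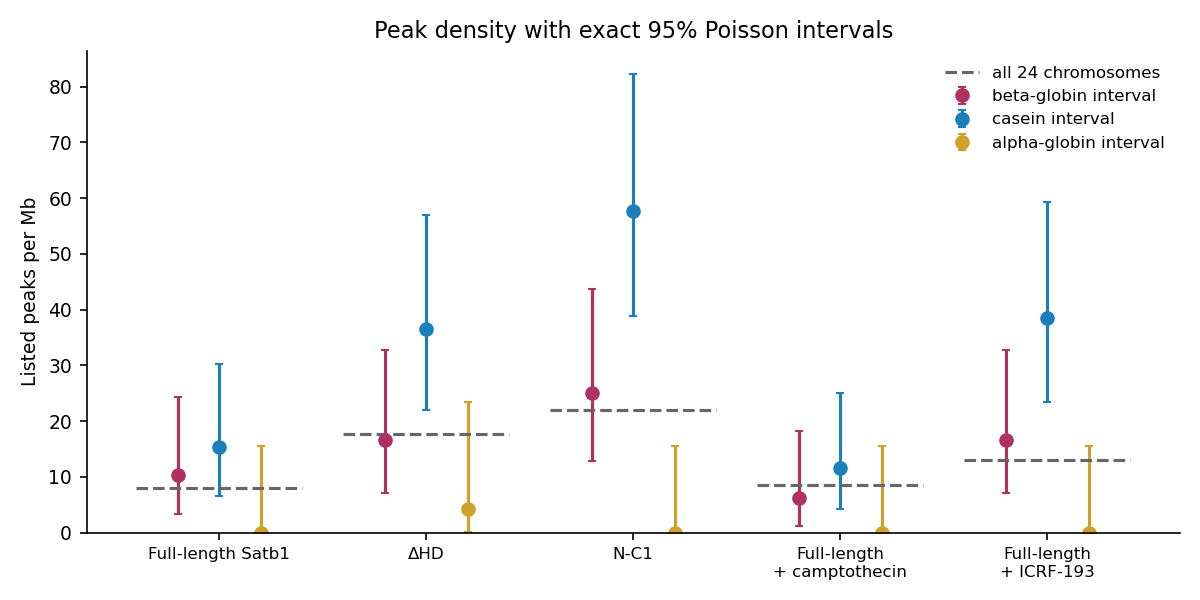
Listed peaks per Mb in the beta-globin, casein and alpha-globin intervals for the 5 ChIP-seq lists, with exact 95% Poisson intervals as bars and the genome-wide density as dashed lines. The beta-globin points lie between 6.25 and 25 per Mb, and each dashed line passes through the beta-globin bar.

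The interval also holds 14 protein-coding olfactory receptor genes, which belong to the large family of odour receptors and surround the globin genes. Within 5 kb of one of their canonical transcripts lay 6 of the 15 sites (1, 2, 6, 12, 13 and 15), among them 2 of the 5 FL sites. This is 40% of the sites, and 37.4% of the interval lies that close to such a gene, so the share is near that of the interval.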

How the data were processed

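Per the labels and the study's methods, the authors used cutadapt for trimming, Bowtie2 for alignment (hg19) and MACS2 for peak calling, with input DNA as the ChIP-seq background. Versions of Bowtie2 and MACS2 and the pooling of duplicates are not given in the sources used here. For each peak the authors deposited a fold enrichment (a ratio of pileup to local background), a p-value and a q-value as −log10, and a score that follows the q-value. The smallest −log10 q in the FL list was 1.45. Depth per list is not stated. A count of 0 is given a limit of 3 counts.

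Peaks were joined to GENCODE 44 genes on GRCh37, which has the coordinates of hg19, by at least 1 bp of overlap. Consensus matches were counted in 400 bp and A/T in 200 bp. Counts carry exact 95% Poisson and shares 95% Clopper-Pearson intervals. No test between conditions was made. Members, lists and measures were chosen with earlier results of these data known. Sites were given in full if listed for FL, in all 5 lists, strongest in a list, in the LCR window or within 5 kb of a globin gene. Alternatives changed the threshold, flank, overlap, window and consensus. The other 13 samples, mouse lists among them, were not used here. On simulated intervals 0 of 2000 overlaps differed from bedtools 2.31.1, and 0 of 497 planted matches were missed. Scripts ran in Python 3.11.15 with scipy 1.17.1, numpy 2.4.6, pysam 0.24.0, pandas 2.3.3, matplotlib 3.10.9 and samtools 1.23.1.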

Additional observations from a re-analysis of the deposited data

How the results depend on the processing

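Of the values recomputed under an alternative, 50 stayed within 1.5 times the count, within the counting interval of the share or within 1 SD of the mean, and 9 moved. With flanks of 50 kb the interval held 3 FL peaks and 1 camptothecin peak, and with flanks of 200 kb it held 9 FL, 7 camptothecin and 13 ICRF-193 peaks. With canonical coding sequences plus 100 kb it held 3 FL and 5 ICRF-193 peaks. The narrower consensus, CTAATAA or CTAATAG on either strand, gave 0.533 matches per site in place of 2.20. With a reciprocal overlap of 50% the share of FL peaks overlapped by ∆HD was 40% in place of 80%, and the converse share 25% in place of 50%, both inside the wide counting intervals. A −log10 q of at least 5 left 10 native ATAC-seq peaks. These follow from shorter or longer intervals, fewer words and fewer peaks. The fold minimum of 5 for the comparison loci was chosen after seeing the data. No paired analysis was possible because each condition has 1 list and no result comes from a test. The small counts, with 3 to 12 peaks per list, limit what can be told apart, and the unknown depth means that a missing peak does not show an unbound site.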

Other observations

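The genes for erythroid regulators were counted in the same way, as gene body plus 100 kb. Of 10, 6 had an FL peak and 7 an N-C1 peak, beside 58.8% and 76.5% of 20136 protein-coding genes taken in the same way. LMO2, a bridging partner of the GATA1 and TAL1 complex, had 2 FL and 4 N-C1 peaks, and NFE2, a subunit of the erythroid factor NF-E2, had 2 of each. BCL11A, a repressor of the fetal globin genes, had 1 FL and 3 N-C1 peaks, and MYB had 1 and 3. GATA1 had 1 FL and 2 N-C1 peaks and LDB1 1 of each, while TAL1 had 0 FL peaks and 1 N-C1 peak. KLF1, ZBTB7A and ZFPM1 had none in any of the 5 ChIP-seq lists, and their intervals were 47.2%, 44.2% and 41.1% A/T. The other intervals ran from 51.9% (GATA1) to 60.0% (MYB), with 55.5% at TAL1. A link between A/T content and peaks was not tested. Over all 10 intervals the FL density was 3.43 peaks per Mb and the N-C1 density 6.86, against 10.4 and 25 at the beta-globin cluster and 8.0 and 22.0 over the genome.

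By the distance of log2(peaks per Mb + 1) over the 5 ChIP-seq lists, the protein-coding genes outside the interval most like it were CMSS1 (distance 0.35), AGK (0.36) and PRRG1 (0.38). CMSS1 had 5 FL, 10 ∆HD, 14 N-C1, 4 camptothecin and 8 ICRF-193 peaks in 564 kb. These likenesses rest on small counts and carry no test.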
